A study of Mus musculus with 15 samples.

Results

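The 10 genes described here write, remove or interpret 2 repressive chromatin marks in hematopoietic stem cells (HSCs): methylation of DNA, and the histone modifications of the Polycomb system. They are the DNA methyltransferase genes Dnmt1, Dnmt3a and Dnmt3b, the methylcytosine dioxygenase genes Tet1, Tet2 and Tet3, the Polycomb genes Ezh1, Ezh2 and Bmi1, and the Polycomb-linked gene Asxl1. They were chosen by symbol, for their known roles, with earlier results of these data known. All 10 were found among the 20696 genes of the expression table. Of these, 8 had a mean of at least 1 FPKM (fragments per kilobase of exon, scaled to the mapped reads of the library) over all libraries and were among the 11345 genes that reached that level and were tested together. Tet1 and Tet2 did not reach it and were tested one gene at a time.

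HSCs had been sorted from mouse bone marrow by flow cytometry, and full-length cDNA libraries were made from 2 ng of RNA with the SMART-Seq v4 kit. The titles give 3 groups of 5 libraries: aged mice with the Thbs1 knockout (TSPKO in the titles) at 18 months, aged controls at 18 months, and young controls at 3 months. Thbs1 encodes thrombospondin 1, a secreted matrix glycoprotein. The labels give neither the strain nor the way the knockout was made, and do not say whether each library came from its own mouse, so p-values measure the spread between libraries, which may in part be technical. The labelled knockout group held 3 female and 2 male libraries, the aged controls 2 female and 3 male, and the young controls 3 female and 2 male.

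As background, Dnmt1 copies methylation onto the new DNA strand after replication, whereas Dnmt3a and Dnmt3b place it on unmethylated DNA, and the Tet enzymes oxidise it as the first step of its removal. Polycomb repressive complex 2 (PRC2) methylates lysine 27 of histone H3 through Ezh2 or its paralogue Ezh1, and Polycomb repressive complex 1 (PRC1), which includes Bmi1, ubiquitinates histone H2A. Asxl1 is a cofactor of Bap1, the enzyme that removes this ubiquitin. DNMT3A, TET2 and ASXL1 are the genes most often mutated in human clonal hematopoiesis, and Bmi1 is required for the self-renewal of mouse HSCs. Ezh2 and Dnmt1 belong to the genes that dividing cells express, while Ezh1 is the paralogue of resting cells.

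Between aged and young controls, Ezh1 was higher in all 5 aged controls than in all 5 young controls, as 4.57% of all tested genes were. Dnmt3b was lower in all 5 aged controls, as 2.59% were, and Ezh2 and Dnmt1 were lower on average. None of these 4 differences passed the adjusted threshold over all genes with all 15 libraries, and the nearest was Ezh1 at an adjusted p of 0.0609. Their promoters are shown here because these 4 genes had the lowest p-values of the 10 between aged and young controls. A further reason is that 2 of them hold TTTGGCGC or TTTCGCGC. These are 2 forms of the E2F site, the element through which cell cycle genes are switched on at the start of DNA replication. Each window runs from 250 bases before to 50 bases after the start of a RefSeq transcript (GRCm38.p6) and reads 5′ to 3′ on the gene's strand. Capitals mark TTTGGCGC or TTTCGCGC on either strand. The windows are Ezh1 at chr11:101226414-101226713 (minus strand), Ezh2 at chr6:47594981-47595280 (minus), Dnmt1 at chr9:20952574-20952873 (minus) and Dnmt3b at chr2:153649199-153649498 (plus).
Ezh1: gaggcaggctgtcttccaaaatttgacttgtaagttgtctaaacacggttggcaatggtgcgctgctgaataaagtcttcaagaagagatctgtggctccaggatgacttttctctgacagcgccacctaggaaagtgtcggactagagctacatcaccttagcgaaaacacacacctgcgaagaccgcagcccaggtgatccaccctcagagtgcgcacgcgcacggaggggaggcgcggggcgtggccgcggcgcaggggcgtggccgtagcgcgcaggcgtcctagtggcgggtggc
Ezh2: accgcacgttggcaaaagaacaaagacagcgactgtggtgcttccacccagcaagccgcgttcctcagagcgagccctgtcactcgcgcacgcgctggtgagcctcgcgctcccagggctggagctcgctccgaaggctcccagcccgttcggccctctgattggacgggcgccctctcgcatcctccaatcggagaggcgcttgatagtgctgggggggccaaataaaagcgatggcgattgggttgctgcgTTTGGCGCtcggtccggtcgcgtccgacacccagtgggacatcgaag
Dnmt1: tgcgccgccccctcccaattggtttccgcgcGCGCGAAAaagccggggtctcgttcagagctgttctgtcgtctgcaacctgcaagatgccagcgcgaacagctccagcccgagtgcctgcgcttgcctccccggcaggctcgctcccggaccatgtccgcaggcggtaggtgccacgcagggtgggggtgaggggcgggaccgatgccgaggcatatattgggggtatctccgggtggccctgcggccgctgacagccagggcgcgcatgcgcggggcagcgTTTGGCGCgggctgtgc
Dnmt3b: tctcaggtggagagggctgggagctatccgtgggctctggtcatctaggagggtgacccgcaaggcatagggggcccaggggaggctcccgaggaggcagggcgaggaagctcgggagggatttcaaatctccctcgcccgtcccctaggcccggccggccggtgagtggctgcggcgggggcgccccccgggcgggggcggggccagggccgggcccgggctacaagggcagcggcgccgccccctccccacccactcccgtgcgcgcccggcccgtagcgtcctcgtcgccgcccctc
The Ezh2 window held TTTGGCGC once, at position 4 counted from the transcript start as position 1. The Dnmt1 window held GCGCGAAA, the reverse complement of TTTCGCGC, at position -219 and TTTGGCGC at position 34. It is the most CpG-rich of the 3 Dnmt1 windows and belongs to the most downstream of their 3 starts. The windows of the upstream starts, at chr9:20952930-20953229 and chr9:20959839-20960138, held neither. The matches thus do not describe every Dnmt1 start. Neither set of letters was found in the Ezh1 or Dnmt3b window, nor in the other member windows, which were 14 in all for the 10 genes. Over all 32851 promoter windows of the reference table, 267 held one (0.813%), and among the 3837 windows with at least 30 CpG dinucleotides 69 did (1.80%). The windows shown contained 23 CpG for Ezh1, 31 for Ezh2, 33 for Dnmt1 and 30 for Dnmt3b, against a median of 7 over all windows. A match describes the sequence only, and binding was not measured. Only these 2 forms of the site were searched. The genes shown were picked by p-value and partly for holding a match, so the matches say nothing about the age differences.

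The libraries held between 16650000 and 28620000 reads in genes, to the nearest 10000, as recovered from the steps in the deposited values. Thbs1 itself read 2.53, 1.69, 17.89, 12.69 and 17.25 FPKM in the libraries labelled knockout, 0.01 to 8.75 FPKM in aged controls and 0.70 to 13.38 FPKM in young controls. The targeted transcript was thus not reduced where the label says knockout, and the group is called by its label throughout. The table heads each column with both a sample title and a library name, and for 10 of the 15 columns the library name is listed in GEO under another sample than the title. Groups here follow the titles. The sex in the library name matched Xist expression in 15 of 15 libraries. All 12 HSC markers averaged at least 1 FPKM, and their sum was 800 to 1019 FPKM in labelled knockout, 1148 to 1241 in aged control and 939 to 1000 in young control libraries. Labelled knockout replicates 2 and 5 carried 2.16% and 0.682% of reads in ribosomal RNA-like genes, against 0.157% to 0.370% in the other 13 libraries, and results are given with and without them where it matters. In such bulk libraries, fewer cells of a type and less RNA per cell cannot be told apart.

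Markers of other cell types were present beside these. The 4 megakaryocyte markers, led by Pf4, summed to 153 to 316 FPKM in labelled knockout, 263 to 1891 FPKM in aged control and 345 to 454 FPKM in young control libraries. Of them, Itga2b fell between labelled knockout and aged controls (-1.80, limma, adjusted p = 0.00101) and rose between aged and young controls (1.01, limma, adjusted p = 0.0381), and Ppbp fell between aged and young controls (-1.49, limma, adjusted p = 0.0117) and between labelled knockout and young controls (-1.92, limma, adjusted p = 0.00455). The 7 erythroid markers summed to 43.6 to 243 FPKM in labelled knockout, 61.6 to 368 FPKM in aged control and 80.8 to 171 FPKM in young control libraries, with Car1 at 1.23 to 299 FPKM, and Hbb-bt fell between labelled knockout and young controls (-1.14, limma, adjusted p = 0.0424). Among the other lists, Lyz2 of the myeloid list (355 to 505 FPKM), Cd79b of the B cell list (29.2 to 63.8 FPKM) and Nkg7 of the T and NK cell list (21.9 to 117 FPKM) were present in every library, while Ms4a1, Cd3d and Cd3g stayed at or below 0.36 FPKM. The macrophage list summed to at most 3.03 FPKM, and the endothelial and stromal list, led by Pecam1, to 5.67 to 12.56 FPKM. No tested gene of the myeloid, B cell, T and NK cell and endothelial lists passed between groups, and no macrophage marker reached the mean needed for the test. Of the HSC markers, Ly6a fell between labelled knockout and aged controls (-1.12, limma, adjusted p = 0.00432) and rose between aged and young controls (0.88, limma, adjusted p = 0.0130), and Procr rose between aged and young controls (1.01, limma, adjusted p = 0.00662). Their part in the differences of the 10 genes was not tested.

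**Figure D1:**
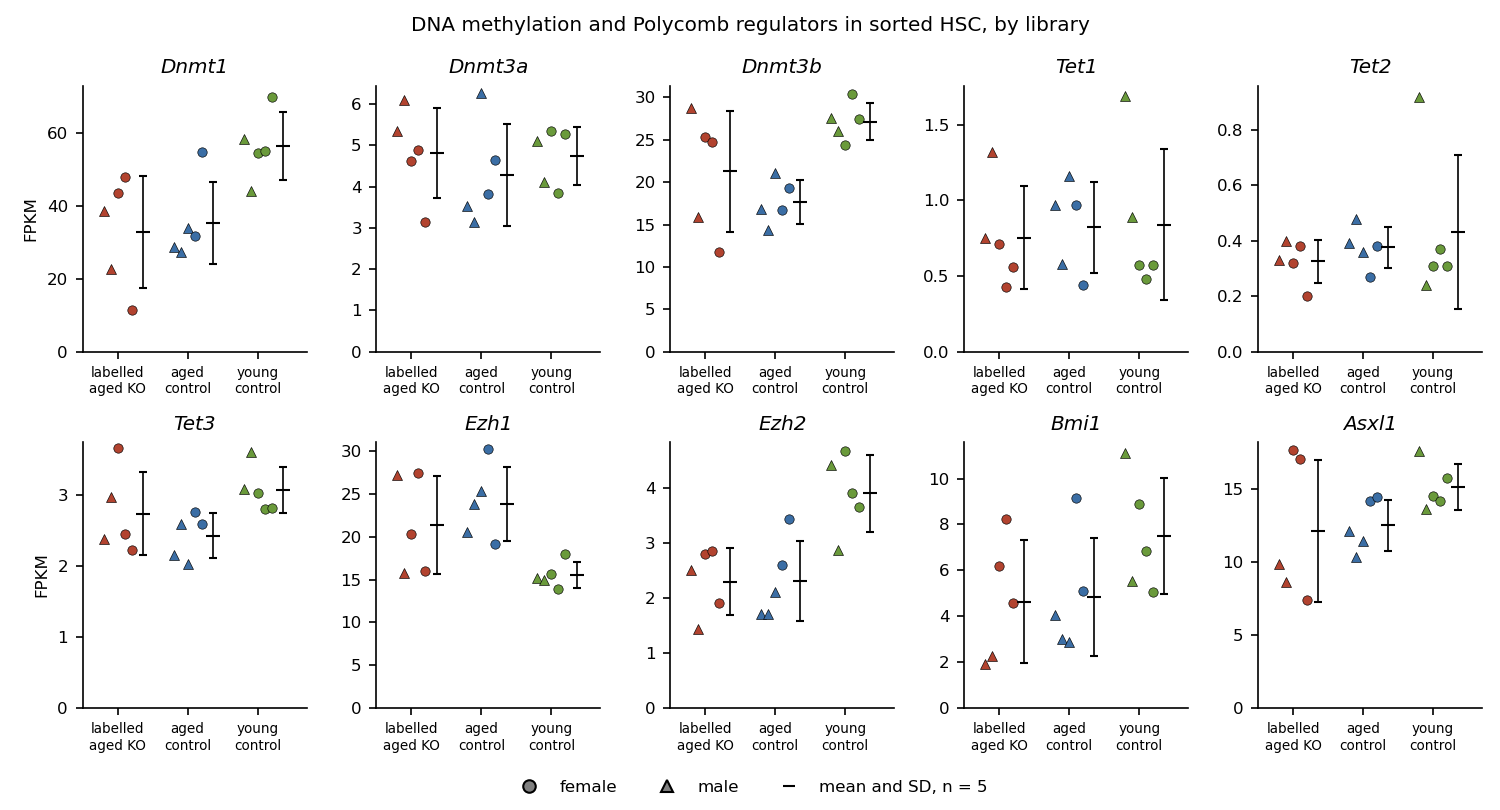
FPKM of the 10 genes in each library, 1 panel per gene with its own linear axis from 0, by title group, with circles for female and triangles for male libraries and the mean and SD (n = 5) beside the points. Ezh1 is higher and Dnmt3b lower in all 5 aged control than in all 5 young control libraries.

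The maintenance enzyme Dnmt1 (ENSMUSG00000004099, GRCm38 chromosome 9, 20907209 to 20959888, minus strand) had the highest level of the 10 genes, at the 86.1st percentile of all tested genes by mean FPKM. It read 38.69, 22.76, 43.49, 48.00 and 11.48 FPKM in labelled knockout libraries 1 to 5, then 28.74, 27.46, 34.00, 31.82 and 54.82 FPKM in aged controls, and 58.33, 44.17, 54.53, 55.09 and 70.05 FPKM in young controls. Aged control replicate 5 lay inside the young range and the other 4 aged controls below it, and labelled knockout replicates 2 and 5 were the lowest of all 15 libraries. The mean was 32.9 ± 15.3 FPKM in labelled knockout, 35.4 ± 11.2 FPKM in aged control and 56.4 ± 9.28 FPKM in young control libraries (SD, n = 5 each).

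On the log2(FPKM + 1) scale, Dnmt1 in aged controls differed from young controls by -0.69 (95% interval -1.31 to -0.07; limma, adjusted p = 0.199). The labelled knockout libraries differed from young controls by -0.91 (-1.52 to -0.29, limma, adjusted p = 0.114) and from aged controls by -0.22 (-0.83 to 0.40, limma, adjusted p = 0.804). Leaving out labelled knockout replicate 4 moved the difference from young controls to -1.08 and past the threshold, with a limma adjusted p of 0.0419, in a fit that called 5.96% of all tested genes. Without the rRNA-rich replicates 2 and 5, the labelled knockout difference shrank to -0.36 from young controls (-0.77 to 0.04, limma, adjusted p = 0.582) and turned to 0.33 from aged controls (-0.08 to 0.73, limma, adjusted p = 0.548).

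Of the de novo enzymes, Dnmt3b (ENSMUSG00000027478, chromosome 2, 153649450 to 153687730, plus strand) was the more abundant per length and Dnmt3a (ENSMUSG00000020661, chromosome 12, 3806007 to 3914443, plus strand) the less. Dnmt3b read 28.76, 15.90, 25.31, 24.79 and 11.76 FPKM in labelled knockout libraries, 16.80, 14.30, 21.04, 16.71 and 19.34 FPKM in aged controls, and 27.56, 26.03, 24.38, 30.42 and 27.40 FPKM in young controls. The aged and young controls did not overlap, and labelled knockout replicates 1, 3 and 4 lay within the young range, replicate 2 within the aged range and replicate 5 below both. The mean was 17.6 ± 2.61 FPKM in aged controls and 27.2 ± 2.23 FPKM in young controls (SD, n = 5 each), a log2 difference of -0.60 (-1.01 to -0.20, limma, adjusted p = 0.0840).

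In the labelled knockout group Dnmt3b averaged 21.3 ± 7.14 FPKM (SD, n = 5), which differed from aged controls by 0.20 (-0.20 to 0.60, limma, adjusted p = 0.693) and from young controls by -0.40 (-0.80 to 0.0016, limma, adjusted p = 0.238). Labelled knockout replicates 2 and 5 held the lowest Dnmt3b of their group, so leaving them out raises its mean. The remaining 3 libraries then differed from aged controls by 0.56 (0.30 to 0.82), and Dnmt3b passed with a limma adjusted p of 0.0313. In that fit 1.62% of all tested genes passed, 0.361% as higher, and these 3 libraries differed from young controls by -0.04 (-0.31 to 0.22, limma, adjusted p = 0.936). That call rests on 3 libraries, of which 2 are female.

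Dnmt3a varied little between groups, at 4.82 ± 1.10 FPKM in labelled knockout, 4.28 ± 1.25 in aged control and 4.74 ± 0.712 in young control libraries (SD, n = 5 each), and its groups overlapped. Its difference was 0.15 between labelled knockout and aged controls (-0.23 to 0.52, limma, adjusted p = 0.775) and -0.14 between aged and young controls (-0.52 to 0.24, limma, adjusted p = 0.664). Within a library, the ratio of Dnmt3b to Dnmt3a averaged 4.45 ± 1.24 in labelled knockout, 4.24 ± 0.545 in aged control and 5.88 ± 1.31 in young control libraries.

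The Tet dioxygenases were present at low levels, in the order Tet3, Tet1, Tet2 by mean FPKM. Tet3 (ENSMUSG00000034832, chromosome 6, 83362373 to 83459084, minus strand) read 2.38, 2.97, 3.66, 2.45 and 2.23 FPKM in labelled knockout libraries, 2.16, 2.59, 2.02, 2.76 and 2.59 FPKM in aged controls, and 3.08, 3.60, 3.03, 2.80 and 2.82 FPKM in young controls. Every aged control lay below every young control, with 2.76 and 2.80 FPKM in the nearest libraries, and the log2 difference of -0.25 (-0.55 to 0.05) did not pass (limma, adjusted p = 0.319). The labelled knockout libraries overlapped both control groups, with differences of 0.12 from aged controls (-0.18 to 0.41, limma, adjusted p = 0.771) and -0.13 from young controls (limma, adjusted p = 0.578).

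Tet1 (ENSMUSG00000047146, chromosome 10, 62804570 to 62908996, minus strand) read 0.43 to 1.32 FPKM in labelled knockout, 0.44 to 1.16 FPKM in aged control and 0.48 to 1.69 FPKM in young control libraries, from 159 to 484 reads. Tet2 (ENSMUSG00000040943, chromosome 3, 133463679 to 133545139, minus strand) read 0.20 to 0.40 FPKM in labelled knockout, 0.27 to 0.48 FPKM in aged control and 0.24 to 0.92 FPKM in young control libraries, from 83 to 288 reads. The ranges of both genes overlapped in each comparison. Labelled knockout and aged controls differed by -0.06 for Tet1 (exact two-sided permutation test, p = 0.722) and -0.05 for Tet2 (exact permutation p = 0.349), and aged and young controls by 0.01 (exact permutation p = 0.937) and -0.04 (exact permutation p = 0.921); 5 against 5 libraries can give no p below 0.00794. These 6 permutation p-values, which include labelled knockout against young controls (exact p = 0.762 for Tet1 and 0.651 for Tet2), were not adjusted, and none was under 0.05.

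The catalytic subunits of PRC2 stood apart with age in opposite directions, though neither difference passed the adjusted threshold with all libraries. Ezh1 (ENSMUSG00000006920, chromosome 11, 101191115 to 101226463, minus strand) read 27.20, 15.80, 20.29, 27.50 and 16.01 FPKM in labelled knockout libraries, 20.57, 23.87, 25.31, 30.23 and 19.10 FPKM in aged controls, and 15.18, 14.95, 15.68, 13.87 and 18.03 FPKM in young controls. All 5 aged controls exceeded all 5 young controls, while labelled knockout replicates 2 and 5 lay within the young range. The means were 23.8 ± 4.36 FPKM in aged and 15.5 ± 1.54 FPKM in young controls (SD, n = 5 each). The log2 difference was 0.57 (SE 0.17, 95% interval 0.22 to 0.92; limma, unadjusted p = 0.00304, adjusted p = 0.0609).

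Ezh2 (ENSMUSG00000029687, chromosome 6, 47530139 to 47595341, minus strand) read 2.50, 1.43, 2.79, 2.86 and 1.91 FPKM in labelled knockout libraries, 1.71, 1.70, 2.11, 2.60 and 3.44 FPKM in aged controls, and 4.42, 2.88, 4.67, 3.91 and 3.65 FPKM in young controls. Every labelled knockout library lay below every young control, and among aged controls only replicate 5 reached the young range. Ezh2 averaged 2.31 ± 0.730 FPKM in aged and 3.91 ± 0.701 FPKM in young controls (SD, n = 5 each). The log2 difference was -0.58 (SE 0.18, -0.96 to -0.20; limma, unadjusted p = 0.00464, adjusted p = 0.0755). Without aged control replicate 5 the difference was -0.69 and passed the test (limma, adjusted p = 0.0225), in a fit that called 8.31% of all tested genes.

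Labelled knockout and aged control libraries did not differ in either subunit beyond their spread. The difference was -0.17 for Ezh1 (-0.52 to 0.18, limma, adjusted p = 0.701) and -0.0013 for Ezh2 (-0.38 to 0.38, limma, adjusted p = 0.998), from means of 21.4 ± 5.76 and 2.30 ± 0.613 FPKM in labelled knockout libraries (SD, n = 5). Against young controls the labelled knockout differences were 0.40 for Ezh1 (limma, adjusted p = 0.191) and -0.58 for Ezh2 (limma, adjusted p = 0.107), and Ezh2 passed with sex in the model (limma, adjusted p = 0.0476), in a fit that called 3.78% of all tested genes. The differences from aged controls, without labelled knockout replicates 2 and 5, turned to 0.07 for Ezh1 and 0.19 for Ezh2 (limma, adjusted p = 0.892 and 0.716), and that of Ezh1 from young controls was 0.64 (limma, adjusted p = 0.0508).

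The ratio of Ezh1 to Ezh2 within a library, which does not depend on the scaling between libraries, was 10.88, 11.05, 7.27, 9.62 and 8.38 in labelled knockout libraries and 12.03, 14.04, 12.00, 11.63 and 5.55 in aged controls. In young controls it ran from 3.36 to 5.19. The aged libraries of both labels thus lay above all young ones, by the smallest margin in aged control replicate 5. The mean ratio was 9.44 ± 1.62 in labelled knockout, 11.05 ± 3.22 in aged control and 4.09 ± 0.894 in young control libraries (SD, n = 5 each). The ratio was built from genes whose age difference was already known and is given as a description, with no test.

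**Figure D2:**
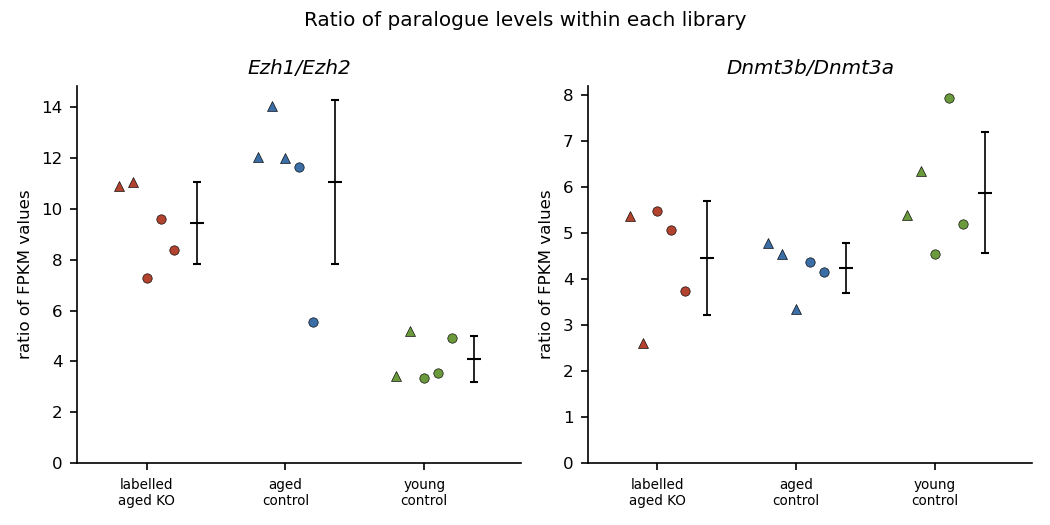
Ratio of FPKM values within each library for Ezh1 over Ezh2 (left) and Dnmt3b over Dnmt3a (right), by title group, with mean and SD beside the points and circles for female, triangles for male libraries. The Ezh1/Ezh2 ratio is 5.55 to 14.04 in the 10 aged libraries and 3.36 to 5.19 in the 5 young ones, whereas the Dnmt3b/Dnmt3a ranges overlap.

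Bmi1 (ENSMUSG00000026739, chromosome 2, 18677018 to 18686629, plus strand), the PRC1 subunit, read 1.89, 2.25, 6.19, 8.24 and 4.59 FPKM in labelled knockout libraries, 4.03, 2.98, 2.88, 9.14 and 5.11 FPKM in aged controls, and 11.12, 5.55, 8.91, 6.83 and 5.05 FPKM in young controls. The ranges overlapped in each comparison, and in both aged groups the male libraries, which carry the lower replicate numbers, were the lowest. The log2 difference was -0.09 between labelled knockout and aged controls (-0.76 to 0.58, limma, adjusted p = 0.932), -0.59 between aged and young controls (-1.26 to 0.08, limma, adjusted p = 0.302) and -0.68 between labelled knockout and young controls (limma, adjusted p = 0.230).

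Asxl1 (ENSMUSG00000042548, chromosome 2, 153345829 to 153404007, plus strand) read 9.89, 8.63, 17.70, 17.08 and 7.42 FPKM in labelled knockout libraries, 12.12, 10.35, 11.46, 14.16 and 14.47 FPKM in aged controls, and 17.64, 13.67, 14.56, 14.20 and 15.76 FPKM in young controls. The labelled knockout libraries spanned the range of both control groups, with replicates 3 and 4 at its top and replicates 1, 2 and 5 below every aged control. Their difference was -0.11 from aged controls (-0.53 to 0.31, limma, adjusted p = 0.860) and -0.37 from young controls (limma, adjusted p = 0.279), and aged and young controls differed by -0.26 (-0.68 to 0.15, limma, adjusted p = 0.449). With labelled knockout replicates 2 and 5 left out, the first turned to 0.20 (limma, adjusted p = 0.684) and the second shrank to -0.06 (limma, adjusted p = 0.936).

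Counted together, 0 of the 8 tested genes passed for labelled knockout against aged controls, where 176 of all 11345 tested genes did (1.55%). None of the 8 had an unadjusted limma p under 0.05, against 12.9% of all tested genes, and limma-voom on recovered reads likewise called 0, with 0 at an unadjusted p under 0.05. Their median difference was -0.05, beside -0.03 over all tested genes. Without labelled knockout replicates 2 and 5 all 8 differences were positive, with a median of 0.20 beside 0.01 over all tested genes, and Dnmt3b was the one that passed.

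For aged against young controls 0 of the 8 passed, against 501 of all tested genes (4.42%). At an unadjusted limma p under 0.05 there were 4, Ezh1 as higher and Dnmt1, Dnmt3b and Ezh2 as lower, against 20.0% of all tested genes; limma-voom called 0, with 5 at that level. Ezh1 was the one gene whose aged controls lay wholly above the young ones, as 4.57% of all tested genes did, and Dnmt3b and Tet3 lay wholly below, as 2.59% did. The median difference of the 8 was -0.42, beside -0.02 over all tested genes.

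The call on this comparison depends on the labelled knockout libraries, because all groups share one estimate of the spread. Leaving out labelled knockout replicates 2 and 5 removes no control library. The age differences are therefore unchanged by construction, and only the estimate of the spread and the p-values move. In that fit 4 of the 8 passed, with limma adjusted p-values of 0.0169 for Dnmt1, 0.00227 for Dnmt3b, 0.0118 for Ezh1 and 0.0317 for Ezh2. The same fit called 9.08% of all tested genes. Ezh1 passed with labelled knockout replicate 2 or replicate 4 alone left out, in fits that called 4.93% and 4.60%. Dnmt3b and Ezh1 passed without labelled knockout replicate 5 alone, where 6.36% were called, and after quantile normalization, where 4.68% were. When libraries were instead grouped by the samples that list their library names, none of the 8 passed and the 4 age differences turned to 0.28 for Dnmt1, 0.26 for Dnmt3b, -0.14 for Ezh1 and 0.24 for Ezh2; that grouping called 0 of all tested genes, with 642 at an unadjusted p under 0.05, against 501 and 2264 by title. Sex and group cannot be told apart in that grouping, since it makes the 5 knockout libraries all female and the 5 young controls all male.

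For labelled knockout against young controls 0 of the 8 passed, against 185 of all tested genes (1.63%). An unadjusted limma p under 0.05 was reached by Ezh1 as higher and by Dnmt1, Ezh2 and Bmi1 as lower, against 21.2% of all tested genes, and limma-voom called 0, with 4 at that level. Ezh2 was the one gene whose groups did not overlap, against 2.32% of all tested genes as lower. Without labelled knockout replicates 2 and 5, limma again called 0 of the 8, with 2 at an unadjusted p under 0.05, and 1.09% of all tested genes. Both comparisons with young controls use the same 5 young libraries, so their values are not independent of each other.

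**Figure D3:**
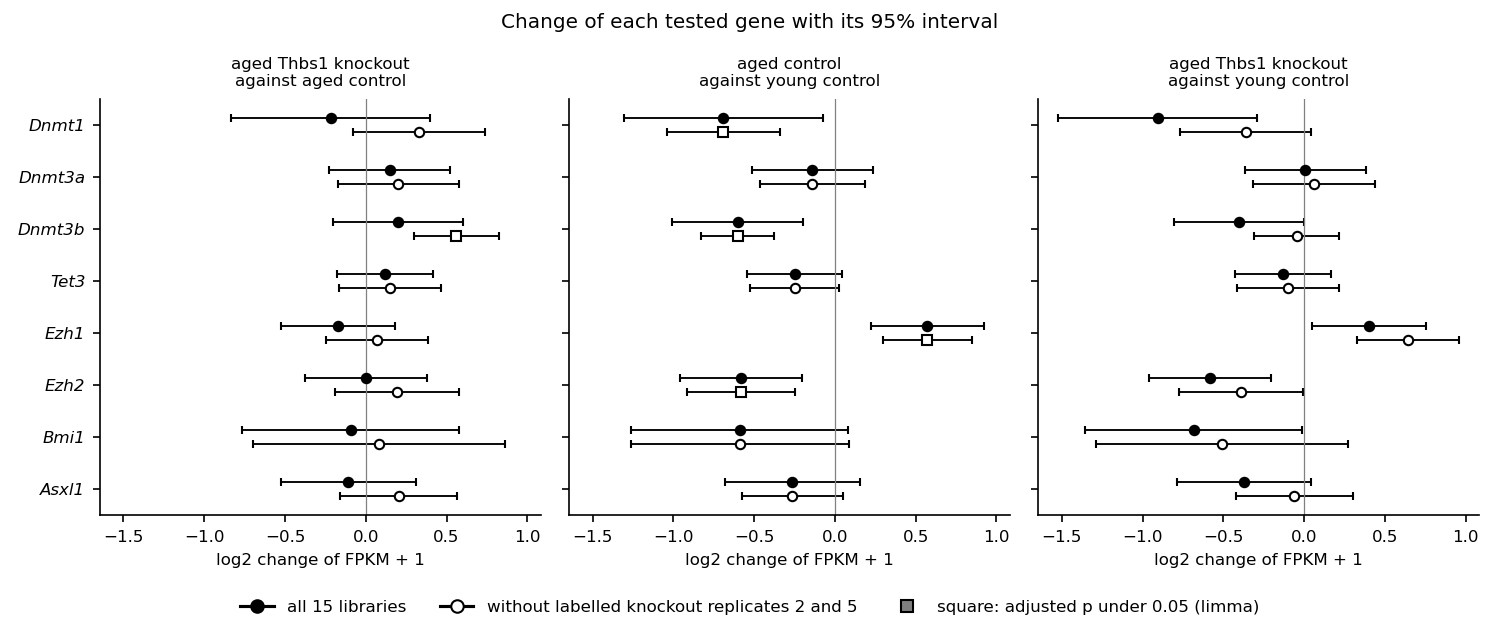
Log2 difference of each tested gene on the log2(FPKM + 1) scale with its 95% limma interval, for the 3 group comparisons; filled points use all 15 libraries, open points leave out labelled knockout replicates 2 and 5, and squares passed the test. With all libraries, in labelled knockout against aged control every interval includes 0; in aged against young control the intervals of Ezh1 (0.22 to 0.92), Ezh2, Dnmt3b and Dnmt1 do not, though none passed after adjustment over all tested genes.

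The partner genes of each system were read from lists chosen by function, with earlier results of these data known. Of 13 tested partners and readers of DNA methylation, 9 PRC2 partners, 21 PRC1 subunits and 8 genes of the Asxl1-Bap1 deubiquitinase and the H3K27 demethylases, limma called 0 in each of the 3 group comparisons, and limma-voom also 0. Between aged and young controls the median difference was -0.30 for the DNA methylation partners (3 of 13 lower at an unadjusted p under 0.05), -0.38 for PRC2 partners (4 of 9), -0.13 for PRC1 subunits (2 of 21) and -0.01 for the deubiquitinase and demethylase genes (0 of 8). Over all tested genes the median was -0.02 and 9.98% were lower at that level, a share that the PRC1 subunits did not exceed. Between labelled knockout and aged controls the medians were -0.05, 0.01, -0.04 and -0.09, with 1 PRC2 partner and 1 PRC1 subunit lower at an unadjusted p under 0.05, against 8.31% of all tested genes. Uhrf1 and Rbbp7, without labelled knockout replicates 2 and 5, passed as lower between aged and young controls (limma, adjusted p = 0.0106 and 0.0156), and no gene of the 4 lists passed in the other comparisons. Between aged and young controls that fit called 391 of all 11345 tested genes as lower, and 9.08% in either direction.

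Uhrf1, which brings Dnmt1 to newly replicated DNA, averaged 36.6 ± 12.1 FPKM in aged and 63.3 ± 10.3 FPKM in young controls (SD, n = 5 each), a difference of -0.82 (-1.41 to -0.23, limma, adjusted p = 0.113). Among PRC2 partners, the histone chaperone Rbbp7 averaged 126 ± 11.00 FPKM in aged and 169 ± 18.4 FPKM in young controls (-0.42, limma, adjusted p = 0.0817), and the core subunit Eed 12.4 ± 2.69 FPKM in aged and 16.9 ± 1.79 FPKM in young controls (-0.43, limma, adjusted p = 0.137). The accessory subunit Phf1 averaged 13.3 ± 3.02 FPKM in labelled knockout and 19.6 ± 4.09 FPKM in aged control libraries (-0.54, -0.88 to -0.19, limma, adjusted p = 0.129).

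Of the known Polycomb targets in the list, the cell cycle inhibitor genes Cdkn2a and Cdkn2b, the B cell factor gene Ebf1 and the fetal genes Lin28b and Igf2bp3 did not exceed 0.33 FPKM in any library. Cdkn2a, the best known target of Bmi1, was listed at 0.17 FPKM at most. The fetal HSC gene Hmga2 averaged 2.26 ± 0.732 FPKM in labelled knockout, 1.37 ± 0.201 FPKM in aged control and 2.03 ± 0.319 FPKM in young control libraries (SD, n = 5 each). Its difference between labelled knockout and aged controls was 0.43 (0.10 to 0.77, limma, adjusted p = 0.229), and 0.21 without labelled knockout replicates 2 and 5. Pax5 was not analysed here.

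**Figure D4:**
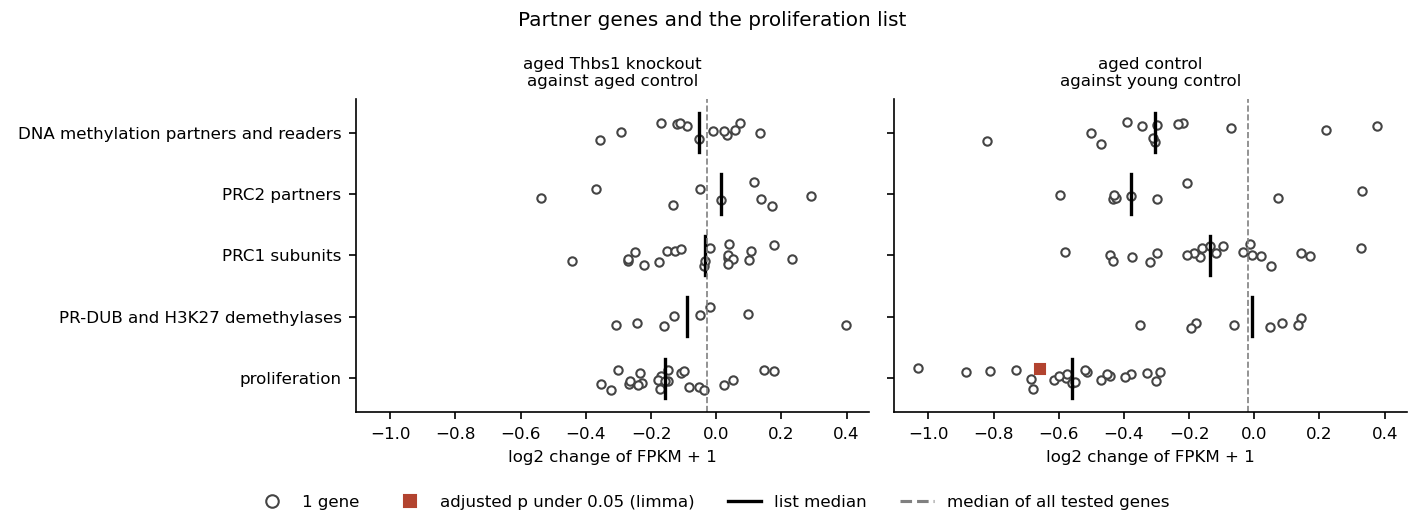
Log2 difference of each tested gene (points) of 5 gene lists, with the list's median (bar) and the median of all tested genes (dashed line), for labelled knockout against aged control (left) and aged against young control (right). The red square is Cdk1, which passed the test. The PRC2 partners (-0.38) and DNA methylation partners (-0.30) lie below the median of all tested genes (-0.02) between aged and young controls, and at 0.01 and -0.05 between labelled knockout and aged controls.

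As a measure of cell division in each library, the mean log2(FPKM + 1) of the 23 tested genes of a 26-gene proliferation list was taken. It was 4.64, 4.33, 4.79, 4.83 and 3.99 in labelled knockout libraries, 4.53, 4.43, 4.59, 4.34 and 5.38 in aged controls, and 5.14 to 5.28 in young controls. Aged control replicate 5, the highest of all on this measure, was also the aged control with the highest Dnmt1 and Ezh2. Labelled knockout replicates 2 and 5, the lowest, had the lowest Dnmt1 of their group. Over the 15 libraries, Pearson's r with this measure was 0.921 for Dnmt1, 0.845 for Ezh2, 0.778 for Dnmt3b and 0.74 for Asxl1. It was 0.461 for Bmi1, 0.444 for Tet3, 0.303 for Dnmt3a and -0.406 for Ezh1. These values include the differences between groups and carry no p. Some single libraries ran differently. Aged control replicate 4, the lowest aged control on this measure, had the next highest Ezh2 of its group (2.60 FPKM). The highest Dnmt3b among aged controls was in replicate 3 (21.04 FPKM), not replicate 5. The part of proliferation in the differences of the 10 genes was not tested.

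Of the 23 genes, 1 fell between aged and young controls, the mitotic kinase gene Cdk1, by 0.66 on the log2 scale (limma, adjusted p = 0.0434), against 1.23% of all tested genes as lower and 4.42% in either direction. At an unadjusted p under 0.05, 16 of 23 were lower, against 9.98% of all tested genes. Between labelled knockout and young controls 3 fell, the replication clamp gene Pcna (-0.85, limma, adjusted p = 0.0107), the nucleotide reductase gene Rrm2 (-0.94, limma, adjusted p = 0.0404) and the topoisomerase gene Top2a (-0.97, limma, adjusted p = 0.0451), against 0.617% of all tested genes as lower. At an unadjusted p under 0.05, 21 of 23 were lower there, against 12.0% of all tested genes. Over the alternative settings, Pcna kept its call in 23 of 24, whereas Cdk1 kept it in 10 of 24, Rrm2 in 11 of 24 and Top2a in 7 of 23. None passed between labelled knockout and aged controls by limma or by limma-voom, and 0 had an unadjusted p under 0.05 by either. The list's median difference was -0.16 between labelled knockout and aged controls, -0.56 between aged and young controls and -0.76 between labelled knockout and young controls. Without labelled knockout replicates 2 and 5 it was 0.13 between labelled knockout and aged controls and -0.44 between labelled knockout and young controls, where Pcna alone passed, and 10 of the 23 passed as lower between aged and young controls. Of all 11345 tested genes, that fit called 45 as lower between labelled knockout and young controls and 391 between aged and young controls.

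**Figure D5:**
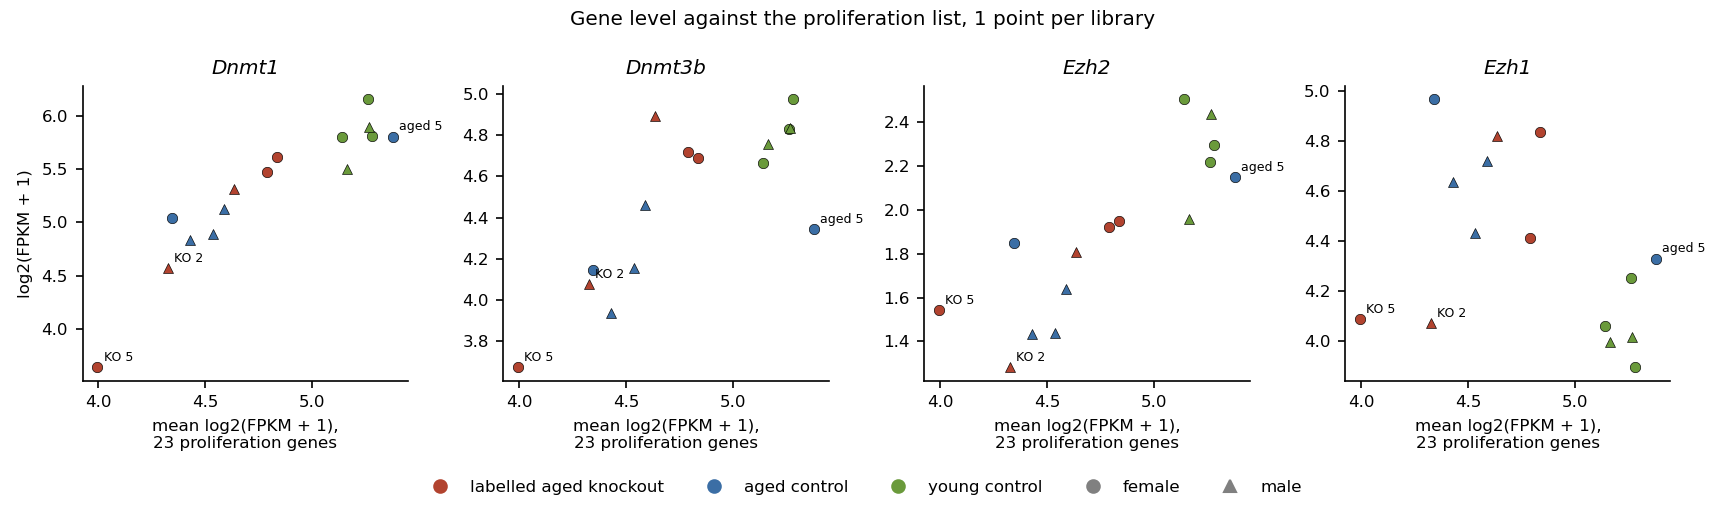
Log2(FPKM + 1) of Dnmt1, Dnmt3b, Ezh1 and Ezh2 (vertical axis) against the mean log2(FPKM + 1) of 23 proliferation genes (horizontal axis) in each of the 15 libraries, coloured by title group. Aged control replicate 5 lies at 5.38 on the horizontal axis with the young controls (5.14 to 5.28), and the other 4 aged controls lie between 4.34 and 4.59.

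Between sexes, with group in the model, 0 of the 8 genes passed, against 1468 of all tested genes (12.9%; 9.67% as higher in female libraries and 3.27% as lower); Bmi1 and Ezh2 were higher in female libraries at an unadjusted limma p under 0.05, as 19.8% of all tested genes were. Bmi1 averaged 6.34 FPKM in female and 2.07 FPKM in male labelled knockout libraries, 7.13 FPKM in female and 3.30 FPKM in male aged controls, and 6.93 FPKM in female and 8.34 FPKM in male young controls. Its difference between sexes was 0.64 (0.17 to 1.11, limma, adjusted p = 0.0670). The difference of labelled knockout and young controls was -0.11 in female and -1.54 in male libraries, an interaction of 1.43 with a limma adjusted p of 0.509, and no gene of the table had an adjusted interaction p under 0.05 in that comparison, with 861 at an unadjusted p under 0.05. Tet1, too low for this fit, averaged 0.567 FPKM in female and 1.035 FPKM in male labelled knockout libraries. It averaged 0.705 and 0.903 FPKM in female and male aged controls, and 0.54 and 1.29 FPKM in female and male young controls. With no filter on low values, its difference between sexes was -0.36 (limma, adjusted p = 0.101), and that of Tet2 -0.13 (limma, adjusted p = 0.391). Sex follows the replicate numbers within each group, so sex and number cannot be told apart.

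Over the 15 libraries, the genes whose levels ran most like those of each tested member other than Tet3, by Pearson's r of log2(FPKM + 1), are given as a description. Dnmt1 was nearest to Lmnb1 (r = 0.981) and Syk (0.972), Dnmt3b to Dclk2 (0.942) and Col4a1 (0.937), and Ezh2 to Immt (0.971) and Rtn3 (0.965). Ezh1 was nearest to Dglucy (0.887) and Rab11fip3 (0.883), Bmi1 to Prkaa1 (0.950) and Zfp24 (0.948), and Asxl1 to Anapc1 (0.973) and Specc1l (0.965). Dnmt3a was nearest to Arid3a (0.889) and Pcnt (0.845). The libraries differ in group, sex and depth, any of which can move genes together, so the values carry no p.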

How the data were processed

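RNA from sorted mouse HSCs was sequenced in 15 libraries. The authors deposited one table of gene-level FPKM values, rounded to 2 decimals; per the submitters' processing notes, FastQC 0.11.5, STAR and edgeR were used with mm10, with other settings not stated there. Exon lengths and gene positions came from GENCODE M21 on GRCm38, which matched 20696 of 20696 IDs. In genes of up to 250 nucleotides, 99.5% to 100% of FPKM values were whole multiples of 1 read (tolerance 0.1 reads), and 97.7% to 98.6% in genes of 251 to 500 nucleotides, which gave the depth; reads of longer genes are approximate.

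log2(FPKM + 1) was fitted with limma 3.58.1 (R 4.3.3; trended prior variance) over genes averaging 1 FPKM or more, all 3 groups together, with Benjamini-Hochberg adjustment over all 11345 genes and a threshold of 0.05. Differences of low genes are compressed on this scale. Tet1 and Tet2 had an exact permutation test in scipy 1.17.1. The script was tested on simulated data. Alternatives were a pseudocount of 0.1, no filter, a mean of at least 5 FPKM, quantile normalization, sex as a covariate, replicate block, grouping by library names, leaving out libraries, and limma-voom on recovered reads, the last chosen after seeing the data. The 10 genes, the 6 pathway lists and the 8 marker lists were chosen with earlier results of these data known. Named genes were all members, and from the lists those that passed or had the lowest p in a comparison. Promoter sequences are RefSeq's. Intervals cover the spread between libraries. The genes nearest to Tet3 are not reported here.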

Additional observations from a re-analysis of the deposited data

Results flagged for a closer look

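Each of the 10 genes was checked for a library that stands apart in each of the 3 groups, and 2 of these 30 checks found one; chance alone flags about 1 in 20. In aged control replicate 5 Dnmt1 read 54.82 FPKM, against 27.46 to 34.00 FPKM in the other 4 aged controls, a gap larger than Dixon's critical share of 0.71 of the group's range. The same library had the highest proliferation mean of all (5.38), and whether the 2 are linked was not tested. In young control replicate 1 Tet2 read 0.92 FPKM, against 0.24 to 0.37 FPKM in the other 4 young controls.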

How the results depend on the processing

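Over the settings tried, 731 single-gene differences kept their direction and side of the threshold, 15 came to pass, 51 lost the call, and 53 reversed; the cause was not tested unless stated. Genes called for labelled knockout against aged controls numbered 113 with a minimum mean of 5 FPKM and 0 when grouped by library names (731 unadjusted), and 95 to 229 with 1 library left out. For labelled knockout against young controls they were 120 with that minimum, 15 by library names, 429 with sex in the model and 98 to 676 with 1 library left out. For aged against young controls they were 265 with that minimum, 0 by library names (642 unadjusted), 1030 without both rRNA-rich libraries and 311 to 943 with 1 library left out. For female against male, 860 were called with no filter.

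Members called ranged from 0 to 0, 0 to 1 (Dnmt1 without labelled knockout replicate 4) and 0 to 2 with 1 library left out, in the same order of comparisons. In aged against young controls Ezh1 passed without labelled knockout replicate 2 or 4, Dnmt3b and Ezh1 without labelled knockout replicate 5, and Ezh1 and Ezh2 without aged control replicate 5. Quantile normalization called 2 (Dnmt3b and Ezh1), leaving out both rRNA-rich libraries 4 there and 1 (Dnmt3b) for labelled knockout against aged controls, and sex in the model 1 (Ezh2) for labelled knockout against young controls.

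Grouping by library names, in which the knockout libraries are all female and the young controls all male, reversed for labelled knockout against aged controls, Asxl1 (0.14), Bmi1 (0.48), Dnmt3a (-0.24), Dnmt3b (-0.37), Ezh1 (0.31) and Tet3 (-0.033); for labelled knockout against young controls Asxl1 (0.079), Bmi1 (0.38), Dnmt3a (-0.038), Ezh2 (0.10), Pcna (0.0044) and Tet3 (0.025); and for aged against young controls Cdk1 (0.27), Dnmt1 (0.28), Dnmt3a (0.21), Dnmt3b (0.26), Ezh1 (-0.14), Ezh2 (0.24), Tet1 (-0.24) and Tet3 (0.058). Leaving out both rRNA-rich libraries reversed, against aged controls, Asxl1 (0.20), Bmi1 (0.082), Dnmt1 (0.33), Ezh1 (0.072) and Ezh2 (0.19). Limma-voom reversed Dnmt3a for labelled knockout against young controls (-0.041), and quantile normalization Tet3 between sexes (-0.031).

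Leaving out 1 library at a time, the differences that changed sign ranged, for labelled knockout against aged controls, Asxl1 from -0.26 to 0.032, Bmi1 from -0.31 to 0.13, Dnmt1 from -0.39 to 0.10, Ezh2 from -0.068 to 0.11 and Tet1 from -0.17 to 0.0086; for labelled knockout against young controls, Dnmt3a from -0.070 to 0.12, Tet1 from -0.16 to 0.094 and Tet2 from -0.14 to 0.019; for aged against young controls, Tet1 from -0.061 to 0.15 and Tet2 from -0.085 to 0.073.

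No pairing of libraries by replicate number was seen, though 5 libraries per group are too few to exclude one. Same-numbered libraries correlated from -0.455 to 0.527 in their deviations, and 1 of 5 was nearest to its own number in each comparison. With the replicate block, 152, 499 and 158 genes were called for labelled knockout against aged, aged against young and labelled knockout against young controls, with 0 members each time. Tet1 and Tet2 had no value between groups with sex in the model or the replicate block, a minimum of 5 FPKM left out Dnmt3a, Ezh2 and Tet3, and limma-voom was not run between sexes. Ezh2, Tet1 and Tet2 rest on as few as 186, 159 and 83 reads in a library.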

Other observations

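Several partner genes of both systems passed the test between sexes, in a fit with group in the model that called 9.67% of all tested genes as higher in female libraries and 3.27% as lower. Kdm6a, the X-linked H3K27 demethylase gene that escapes X inactivation, averaged 2.50 ± 0.482 FPKM in female and 1.05 ± 0.851 FPKM in male libraries (SD, n = 8 and 7; 0.84, limma, adjusted p = 0.0113). Of 21 PRC1 subunits, 3 were higher in female libraries and none lower: Rnf2, the catalytic ubiquitin ligase (0.63, limma, adjusted p = 0.0249), Yaf2 (0.49, limma, adjusted p = 0.00729) and Pcgf6 (0.39, limma, adjusted p = 0.0474). Of 9 PRC2 partners, Rbbp7 was higher (0.28, limma, adjusted p = 0.0424) and Phf1 lower (-0.35, limma, adjusted p = 0.0404). Of 13 DNA methylation partners, 3 were higher: Idh1 (0.45), Mbd2 (0.35) and Uhrf2 (0.47), with limma adjusted p-values of 0.0195, 0.0434 and 0.0373. Over the 4 alternative settings run between sexes, Mbd2, Pcgf6 and Uhrf2 each lost the call in 2, and Rnf2, Rbbp7 and Phf1 each in 1, while Idh1 and Yaf2 kept it in all 4 and Kdm6a in the 3 that included it.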
